A study of Caenorhabditis elegans with 2 samples.

Results

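The genes ift-43 and mdt-26 lie head to head on chromosome II of Caenorhabditis elegans, and the sequence between their starts held the second strongest NFYA-1 binding region of the dataset. They are 2 of 19973 protein-coding nuclear genes, and 3 of the 6932 reproducible NFYA-1 summits fell within the locus, taken as both genes with 5 kb on each side. The pair was chosen on this measured rank, so the rank and signal of its peak are given as a description with no test. Binding was measured by chromatin immunoprecipitation and sequencing (ChIP-seq) in whole L3 larvae, hermaphrodites of strain OP404, whose genotype is unc-119(tm4063) III with the transgene wgIs404. The transgene encodes NFYA-1 carrying GFP and FLAG at its C-terminus, and the chromatin was sonicated and precipitated through the GFP tag. All animals belong to 1 group with 2 biological replicates, both carrying the unc-119 allele and the transgene, and the labels do not say which sequence drives the tagged protein. Libraries from untagged animals or for other factors were not analysed here, and the whole animal gives no view of the cell types in which binding took place.

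NF-Y is a trimer of A, B and C subunits, and the A subunit, here NFYA-1, makes the contact with the CCAAT box. In many animals CCAAT boxes lie a short way upstream of gene starts and are read by NF-Y in either orientation. IFT-43 is a predicted member of complex A of intraflagellar transport, the train system that carries cargo back from the tips of cilia, which in worms are found on sensory neurons. MDT-26 is a worm subunit of Mediator, the large complex that links transcription factors to RNA polymerase II. A divergent promoter is a stretch of sequence flanked by genes that are transcribed away from each other.

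The sequence next to mdt-26 is shown because it carries the summit and every core promoter motif described here. It is the + strand of ce11 at chrII:5660881-5661180, 300 bp that end at the base before the mdt-26 start, with CCAAT, the GC box GGGCGG and the TATA box TATAAA in capitals.
ift-43/mdt-26 promoter: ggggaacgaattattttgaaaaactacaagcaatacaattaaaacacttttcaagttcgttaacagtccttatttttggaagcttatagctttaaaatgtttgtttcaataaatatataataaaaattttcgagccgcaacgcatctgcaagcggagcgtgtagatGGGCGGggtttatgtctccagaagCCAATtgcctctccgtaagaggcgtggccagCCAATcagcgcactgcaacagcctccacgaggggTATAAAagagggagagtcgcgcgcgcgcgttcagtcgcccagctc
Reading toward mdt-26, the capitals follow in the order GC box, CCAAT box, CCAAT box and TATA box. All read on the + strand, the strand on which mdt-26 is annotated.

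The ift-43 gene (WBGene00016121) occupies chrII:5659881-5660786 on the − strand, with 1 transcript of 5 exons and 906 bp from end to end. Its annotated start is the first base of its start codon, so the annotation holds 0 bp of 5′ UTR. The mdt-26 gene (WBGene00016115) occupies chrII:5661181-5665243 on the + strand, is 4063 bp long and has 3 transcripts of 7 or 8 exons. A transcript of 8 exons starts 13 bp before the start codon, and the others start at it. Between the starts of the genes lie 394 bp. Many worm messenger RNAs are trans-spliced, which removes the original 5′ end, so the annotated starts may lie downstream of the points where transcription begins.

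NFYA-1 binding between the gene starts was strong and sharply placed in both replicates. In the authors' optimal list, which keeps peaks reproducible by their irreproducible discovery rate (IDR), the region ran from 5660834 to 5661499 with its summit at 5661101. That summit is 315 bp from the ift-43 start and 80 bp from the mdt-26 start. Its signal was 9942.6, rank 2 of 6932. The signal is the authors' own value on a scale that the files do not state, so it is compared only within a list. Replicate 1 had a signal of 5295.48 at this region and replicate 2 had 4664.63, and the region was rank 2 of 30000 in each replicate's relaxed list. The summit of replicate 1 was again at 5661101, and that of replicate 2 was at 5661099, or 313 bp from ift-43 and 82 bp from mdt-26. The −log10 q value was 4.17 in replicate 1 and 4.26 in replicate 2, but these are the ceilings of their lists, and the optimal list holds 1 value only, 4.17.

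The place of the promoter peak between its neighbours in rank was alike in the replicates. Its signal was 78.5% of that of rank 1 in replicate 1 and 82.1% in replicate 2, and 80.2% in the optimal list. Against rank 3 of the same list it was 1.38-fold higher in replicate 1, 1.25-fold higher in replicate 2 and 1.32-fold higher in the optimal list. The signal was 82.2 times the median of 121 over the optimal list, and 378 and 476 times the median of the relaxed lists of replicates 1 and 2. With 1 group of 2 libraries, chosen on this value, no test of these differences was made.

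The region was also among the widest. It spanned 666 bp in the optimal list, 588 bp in replicate 1 and 596 bp in replicate 2, and the regions of the replicates shared 588 bp. By width it was number 22 of 6932 in the optimal list. The commonest width there was 356 bp, held by 60.5% of the peaks. The region was not centred on its summit, with 267 bp on the side of ift-43 and 398 bp on the side of mdt-26. It covered 319 bp of mdt-26 and 0 bp of ift-43.

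**Figure D1:**
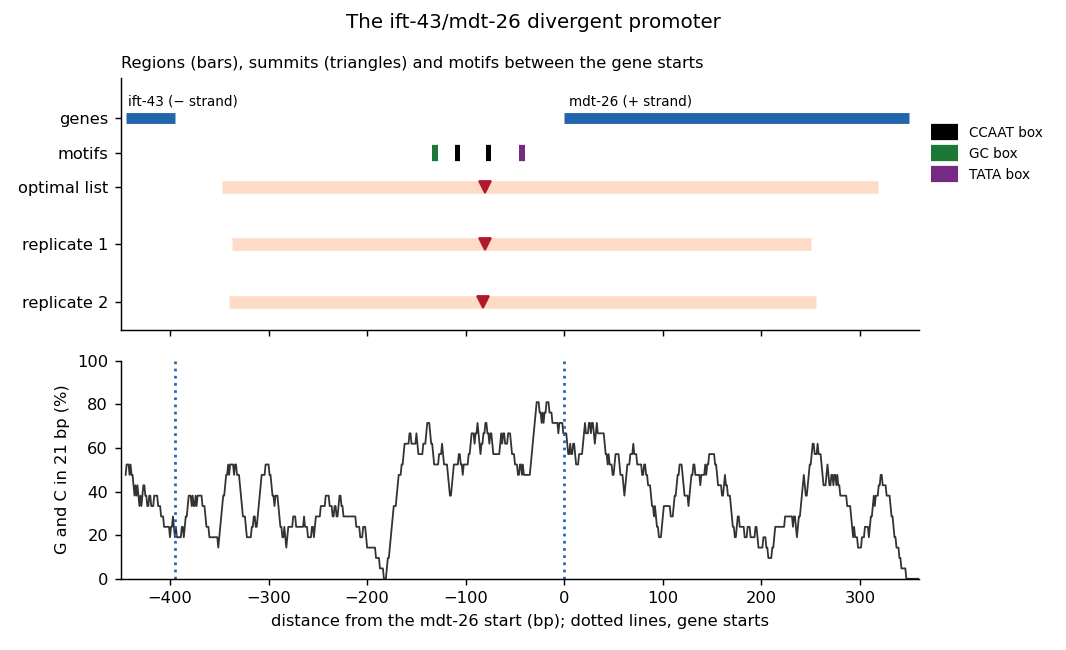
The upper panel shows the called regions (bars) with their summits (triangles) in the optimal list and in both replicates, over the motifs found between the gene starts, and the lower panel shows the percentage of G and C in sliding windows. All summits lie 80 to 82 bp before the mdt-26 start, at the CCAAT box nearer that gene, in the GC-rich part of the interval.

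The interval between the genes held 2 CCAAT boxes, both within 50 bp of the summit. The box nearer mdt-26, at chrII:5661102-5661106, began 79 bp before the mdt-26 start, and its centre was 3 bp from the optimal summit. The other box, at chrII:5661071-5661075, began 110 bp before the start, and its centre was 28 bp from the summit on the side of ift-43. Both read CCAAT on the + strand, toward mdt-26, and their centres were 31 bp apart with 26 bases between them. The box at the summit stood in agCCAATca, a context that also satisfies the extended form of the motif (CCAAT after A or G at 2 positions and before C or G and then A or G). The other box did not match that form.

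Core promoter motifs were found on the mdt-26 side only. A TATAAA lay 45 to 40 bp before the mdt-26 start, and a GGGCGG lay 134 to 129 bp before it. GCGCGC occurred 3 times in overlapping copies from 27 to 18 bp before that start. Each motif was sought on both strands. GAGAGA had 0 matches between the starts, as did CGTCTC. The X-box, the site of the cilia gene regulator DAF-19, had 0 matches too. Of the sequence of the same length upstream of each protein-coding gene, 394 bp in 19973 promoters, 55.0% held a CCAAT, 19.9% held at least 2, and 3.26% held the extended form. TATAAA was found in 46.9% of these promoters, GGGCGG in 9.27%, GCGCGC in 4.65%, GAGAGA in 25.97%, CGTCTC in 13.2% and the X-box in 3.47%. A CCAAT or a TATAAA alone is therefore common in promoters of this length, while 2 CCAAT boxes on 1 strand at 31 bp occurred in 17 of them (0.0851%). This spacing was looked up after it had been seen at ift-43/mdt-26. The count takes in that interval itself, which is the 394 bp upstream of ift-43 and equally of mdt-26.

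Base composition changed within the interval. The 150 bp next to mdt-26 were 61.3% G and C with 14 CpG dinucleotides, against 30.3% G and C with 8 CpG in the other 244 bp, nearer ift-43. Chromosome II as a whole has 36.2% G and C. The summit, both CCAAT boxes, the GC box and the TATA box lay in the GC-rich 150 bp, and the part of base composition in the signal was not tested. Sequence at the summit was unique, since 0 of the 82 strings of 20 bases within 50 bp of it occurred elsewhere in the genome, and 10 of 647 did in the whole region.

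NFYA-1 also marked mdt-26 itself, at a pair of introns. The stronger intronic peak ran from 5661596 to 5662215 with its summit at 5661926, 745 bp downstream of the mdt-26 start, in the intron at chrII:5661782-5662167. It had a signal of 878.344 and rank 89 of 6932 in the optimal list. Replicate 1 had a signal of 485.134 and rank 99 there, and replicate 2 had 394.032 and rank 88. The promoter peak exceeded it 11.3-fold in the optimal list, 10.9-fold in replicate 1 and 11.8-fold in replicate 2, so the ratio of the peaks varied little between the replicates. The summit of replicate 1 lay at 5661970 in the same intron, and that of replicate 2 at the optimal position.

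The weaker intronic peak, of 137 bp, had its summit at 5663580, 2399 bp downstream of the mdt-26 start, in the intron at chrII:5663328-5663733. Its signal was 143.083, rank 2879 of 6932. Replicate 1 placed 2 summits there, with signals of 74.2 and 52.7, and replicate 2 placed a summit with a signal of 73.1 and a weak one of 4.48 in the next coding exon. The promoter peak was 69.5 times as high in the optimal list, and 71.3 and 63.8 times the stronger of these summits in replicates 1 and 2. This peak was therefore the least sharply placed of the 3, with replicate summits between 5663411 and 5663610 apart from the weak one. In its region 9 of 118 strings of 20 bases occurred more than once in the genome, against 0 of 601 in the stronger intronic peak. Whether this bears on its placing was not tested.

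The intronic peaks differed from the promoter in sequence, as shown by the bases within 50 bp of each summit on the + strand of ce11. CCAAT and its reverse complement ATTGG are in capitals, as is CGTCTC, a string looked for because it was frequent at summits. The windows are chrII:5661876-5661976 for the peak of rank 89 and chrII:5663530-5663630 for that of rank 2879.
mdt-26 intron peak, rank 89: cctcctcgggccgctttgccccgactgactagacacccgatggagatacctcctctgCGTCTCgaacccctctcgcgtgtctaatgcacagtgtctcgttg
mdt-26 intron peak, rank 2879: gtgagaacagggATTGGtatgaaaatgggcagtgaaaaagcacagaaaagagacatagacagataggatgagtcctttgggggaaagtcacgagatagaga
The peak of rank 89 had 0 CCAAT and 1 CGTCTC within 50 bp and was 60.4% G and C. The peak of rank 2879 had 1 CCAAT, on the − strand, and was 43.6% G and C. At the promoter the same window had 2 CCAAT and 56.4% G and C. CGTCTC stood in 17.8% of the windows at all optimal summits and in 2.35% of windows placed 300 bp to the lower side.

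**Figure D2:**
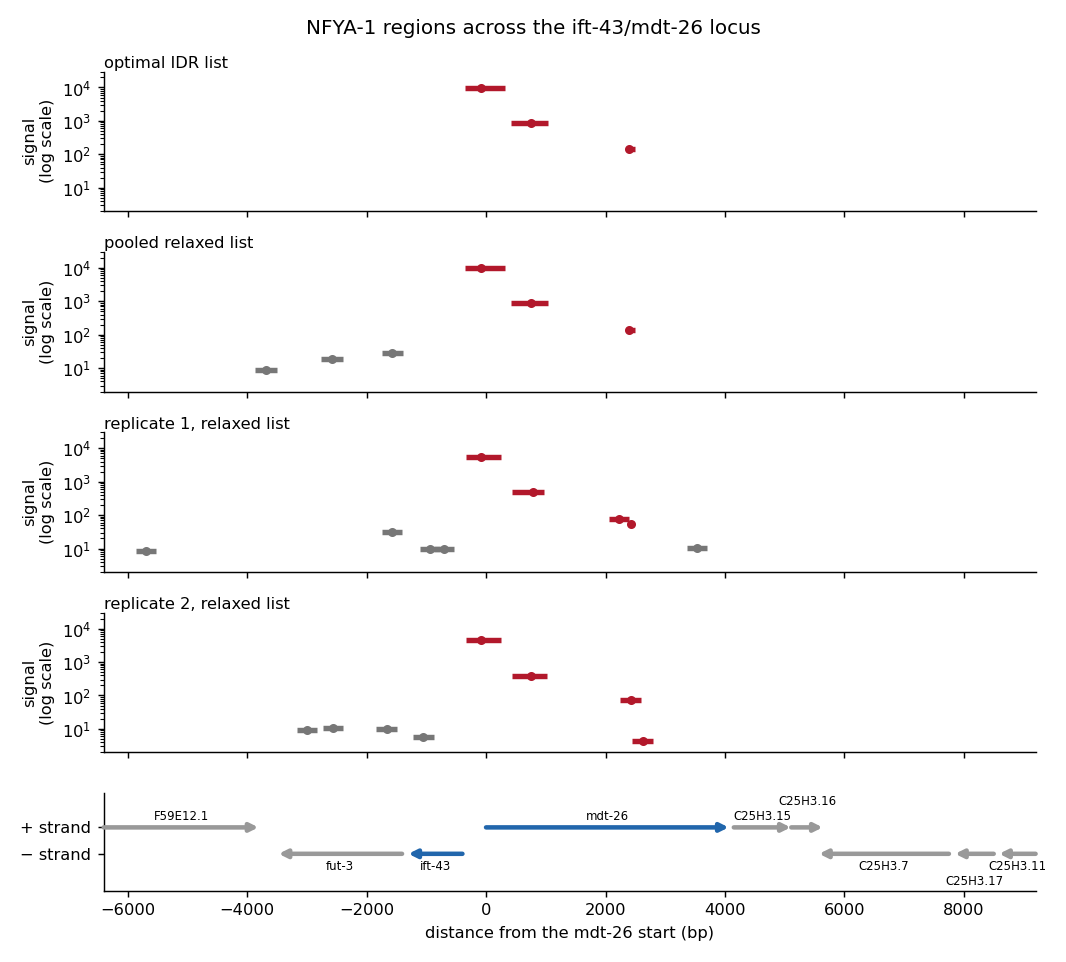
Signal (log axis) of every region in the optimal list, the pooled relaxed list and the relaxed lists of both replicates is drawn over the genes of the locus, as distance from the mdt-26 start. Red regions overlap an optimal peak, grey regions do not, and the promoter region stands above all others in each list, at 9942.6 in the optimal list, 5295.48 in replicate 1 and 4664.63 in replicate 2.

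Away from these 3 peaks the regions of the locus were weak, with signals from below the median of their list to little more than 2 times it. The relaxed lists contain background regions by design, and the plot of the locus shows in grey those that overlap no optimal peak. Replicate 1 had 5 such regions, with signals from 8.25 to 31.4, and replicate 2 had 4, with signals from 5.82 to 10.3. The strongest, in a coding exon of the fucosyltransferase-family gene fut-3 (summit 5659611), reached 31.4 and rank 7238 in replicate 1, where the list median was 14.0, with its −log10 q at the ceiling, but the nearest region of replicate 2 reached 9.67 and rank 15171. In the list called on both replicates together, 3 such regions had signals from 8.96 to 28.1.

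The genes around the pair did not share its binding. The neighbour fut-3 lies 105 bp beyond the end of ift-43 on the same strand, and C25H3.15 and C25H3.16 follow mdt-26 on its strand at gaps of 85 bp and 9 bp. Closely spaced genes on 1 strand are often transcribed together as operons in worms, and whether these are was not examined here. Neither fut-3 nor F59E12.1, C25H3.15, C25H3.16, C25H3.7 and C25H3.17 had an optimal summit in the promoter window, set from 500 bp upstream to 200 bp downstream of the gene start. The nearest optimal summits outside the locus were 11469 bp away, 116 bp upstream of the centriole duplication kinase gene zyg-1, with a signal of 357.506 and rank 702, and 28054 bp away, 115 bp upstream of C25H3.11, with 166.795 and rank 2393. Within 100 kb of the promoter summit there were 18 other optimal summits, counting those in the mdt-26 introns. Rank 702 was the best of those outside the locus. Chromosome II had 1040 optimal summits, of which the next strongest after ift-43/mdt-26 was rank 10, at 12339330.

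Among divergent promoters, that of ift-43/mdt-26 stood in the small group far above the rest. A divergent promoter was defined by adjacent protein-coding genes with facing starts and at most 1000 bp between them. Of 1745 such promoters, 646 (37.0%, 95% Wilson interval 34.8 to 39.3) had an optimal summit between the starts. The signal of ift-43/mdt-26 was 9942.6, against a median of 189 over the other 645 and a range from 53.9 to 12400.7. It was second to Y22D7AL.10/hsp-60 on chromosome III, between the genes for the mitochondrial co-chaperonin and chaperonin, with 12400.7 and rank 1. The next was imp-2/enpl-1 on chromosome IV, where enpl-1 encodes the endoplasmin of the endoplasmic reticulum, with 4919.98 and rank 9. After these 3 the signal was 1466.41 or less, at rpl-20/Y17G9B.5 (rank 26), T26A8.4/pdtf-1 (1303.83, rank 29) and rpl-15/K11H12.8 (1279.25, rank 30), where rpl-20 and rpl-15 encode ribosomal proteins. The order of the first 3 was the same in both replicates, in which hsp-60 ranked 1 and 1, ift-43/mdt-26 ranked 2 and 2, and enpl-1 ranked 8 and 9.

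Width, gap and distance placed the promoter differently. Its region of 666 bp was wider than that of any other bound divergent promoter, whose median was 250 bp and whose widest was 519 bp. Its gap of 394 bp was ordinary, since 387 of the other 645 had a wider gap and 257 a narrower one, with a median of 457 bp. Its summit was 80 bp from the nearer start, against a median of 131 bp, and 199 of the others were nearer still. The 56.4% of G and C within 50 bp of its summit compared with a median of 46.5%, and 39 of the others had more. Across the 646 promoters the Spearman correlation with signal was 0.468 for G and C content, 0.122 for the distance to the nearer start, 0.0356 for the gap, −0.293 for the width and 0.0244 for the number of CCAAT boxes within 50 bp. These describe promoters measured in the same libraries, and no test is attached to them. Many of the weaker peaks had the fixed width of 356 bp, which enters the correlation with width.

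**Figure D3:**
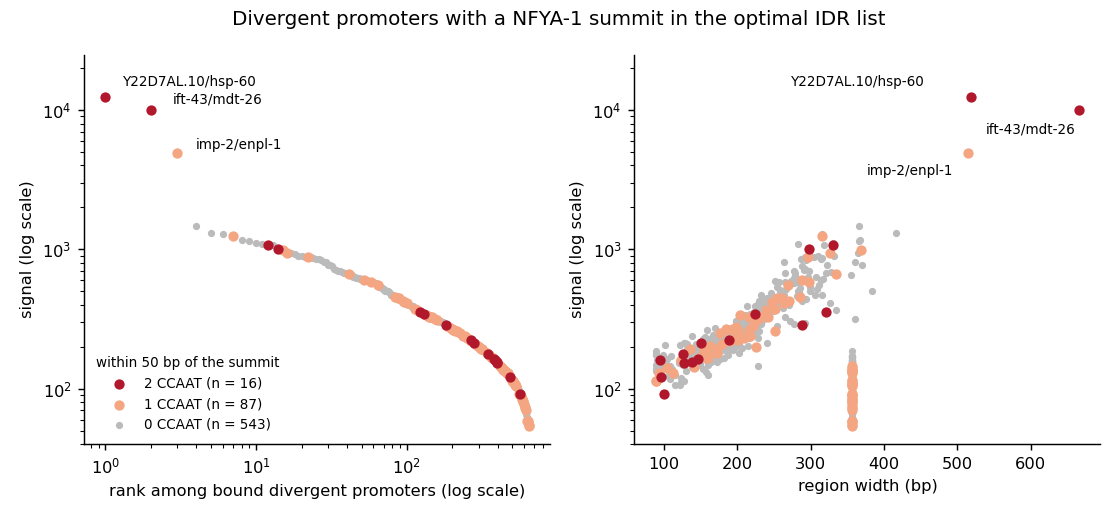
Each point is 1 of the 646 divergent promoters with an optimal NFYA-1 summit, with signal on a log axis against its rank among them (left) and against region width in bp (right). The ift-43/mdt-26 promoter is second in signal at 9942.6 and widest at 666 bp, and the coloured points carry CCAAT boxes within 50 bp of the summit.

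Having 2 CCAAT boxes at the summit was uncommon among these promoters. There were 0 boxes within 50 bp in 543 of 646 (84.1%), 1 box in 87 (13.5%) and 2 boxes in 16 (2.48%, Wilson interval 1.53 to 3.99), and the 16 include ift-43/mdt-26. Over all 6932 optimal summits, 10.2% had at least 2 boxes in this window, against 2.34% in windows 300 bp to the lower side. Promoters with 2 boxes were spread over most of the range of signal, as the plot of divergent promoters shows. Among the other promoters, the 15 with 2 boxes had signals from 91.5 to 12400.7 with a median of 213, the 87 with 1 box had a median of 192 and the 543 with none had a median of 188. The strongest promoter with no box was at rank 26.

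The bases within 50 bp of the summit at the strongest divergent promoters and at a weaker one with 2 boxes are shown for comparison with the ift-43/mdt-26 summit, all on the + strand of ce11 with CCAAT or ATTGG in capitals. Their positions are chrII:5661051-5661151, chrIII:1619094-1619194, chrIV:11119184-11119284 and chrV:13909573-13909673.
ift-43/mdt-26: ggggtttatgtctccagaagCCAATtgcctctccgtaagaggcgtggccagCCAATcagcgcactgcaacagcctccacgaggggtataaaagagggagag
Y22D7AL.10/hsp-60: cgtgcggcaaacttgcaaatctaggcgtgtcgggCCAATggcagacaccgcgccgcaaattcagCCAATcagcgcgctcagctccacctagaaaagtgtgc
imp-2/enpl-1: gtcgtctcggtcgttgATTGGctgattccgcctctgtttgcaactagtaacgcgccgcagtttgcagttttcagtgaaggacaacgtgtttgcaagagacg
C06B3.6/C06B3.7: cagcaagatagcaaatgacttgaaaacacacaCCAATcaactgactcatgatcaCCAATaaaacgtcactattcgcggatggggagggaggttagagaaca
The boxes of ift-43/mdt-26 and hsp-60 were both on the + strand, 31 bp apart at ift-43/mdt-26 and 30 bp apart at hsp-60, and the single box of imp-2/enpl-1 was on the − strand.

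The 3 strongest divergent promoters shared the bases around 1 box. The string cagCCAATca, on the + strand at chrII:5661099-5661108, was present on either strand at all 3, at 25 of the 6932 optimal summits (0.361%) and at 3 of the 20 strongest. It stood in 0 of the windows 300 bp to the lower side and at 187 places in the genome. A longer string, cagCCAATcagcgc at chrII:5661099-5661112, was common to ift-43/mdt-26 and hsp-60, and these were its only 2 places in the genome. Both strings were found by comparing these promoters after their signals were known, so they describe the promoters and support nothing further.

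Orientation was less regular than the sequence. The boxes of ift-43/mdt-26 both pointed at mdt-26, the nearer gene. Among the bound divergent promoters with a box within 50 bp, all boxes pointed at the nearer gene in 55, all pointed away in 41 and they were mixed in 7. At Y22D7AL.10/hsp-60 the nearer start was that of Y22D7AL.10, at 215 bp. Both boxes pointed away from it, toward hsp-60 at 598 bp. The box of imp-2/enpl-1 pointed away from the nearer gene, enpl-1. The 3 strongest promoters thus did not share an orientation, although the boxes of ift-43/mdt-26 and hsp-60 pointed at the + strand gene.

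The promoters with the most boxes at the summit varied in strength and in how the boxes were arranged. After hsp-60, the strongest with 2 boxes were rps-19/hsr-9 (1078.4, rank 50) and clsp-1/eef-2 (1006.62, rank 64), both on chromosome I and both beside genes of translation, a ribosomal protein and elongation factor 2. At C06B3.6/C06B3.7 on chromosome V, 2 boxes on 1 strand were 22 bp apart and the signal was 355.807, rank 709. At sna-3/rps-3 on chromosome III the boxes overlapped on opposite strands and the signal was 345.642, rank 739. The ift-43/mdt-26 promoter, with the same number of boxes, had a signal of 9942.6.

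The spacing of 31 bp was held by few divergent promoters and by few peaks of the whole list. Only ift-43/mdt-26, of 27 bound divergent promoters with 2 boxes on 1 strand within 100 bp of the summit, had its boxes 31 bp apart. Over all optimal peaks there were 976 pairs of neighbouring boxes on 1 strand within 100 bp, of which 317 were 32 bp apart and 30 were 31 bp apart, the commonest and the next commonest spacing, against a median of 5 per spacing. Many of these peaks share sequence, and a peak can hold several pairs. In the 4921 peaks that shared no string of 20 bases with another peak, which include ift-43/mdt-26, 354 such pairs were found, with 23 at 32 bp, 9 at 33 bp and 8 each at 45 and 54 bp. The spacing of 31 bp followed with 7 pairs, as many as 11, 16 and 37 bp had, against a median of 3 per spacing. A spacing of 30 to 33 bp, a range chosen after these counts were seen, occurred at 3 of the 20 strongest peaks (ranks 1, 2 and 12). It occurred at 334 of all 6932 optimal peaks (4.82%), at 3 of 646 bound divergent promoters (0.464%) and at 37 of the 4921 peaks without shared sequence (0.752%). The 3 divergent promoters were Y22D7AL.10/hsp-60, ift-43/mdt-26 and C17H12.2/vha-8, the last with a signal of 661.075 and rank 187.

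**Figure D4:**
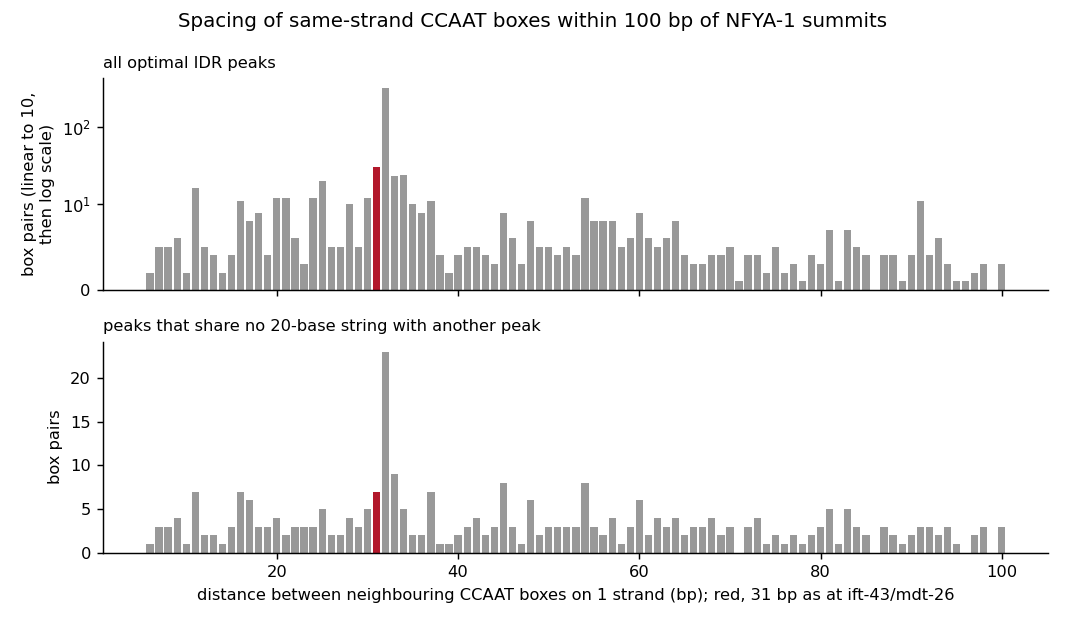
Bars count pairs of neighbouring CCAAT boxes on 1 strand at each distance in bp within 100 bp of the summits, for all optimal peaks (upper panel, linear to 10 and then log) and for the 4921 peaks that share no 20-base string with another (lower panel, linear). The red bar marks the 31 bp of ift-43/mdt-26, with 30 pairs in the upper panel and 7 in the lower one, next to the tallest bar at 32 bp.

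Other genes of each complex had far lower signal at their promoters, or no optimal summit there. Of 27 intraflagellar transport genes, 4 had an optimal summit in the promoter window (14.8%, Wilson interval 5.92 to 32.5), a share near the 15.6% of all protein-coding genes (3122 of 19973, with a median rank of 2607). These were ift-43 at rank 2, dyf-3, which encodes a complex B protein (161, rank 2523), ift-81, another complex B gene (142, rank 2907), and kap-1, the kinesin-II accessory subunit (85.7, rank 4724). Only ift-43 of the 4 had a CCAAT within 50 bp of the summit. The other 23 genes of the list had no optimal summit in the window. The count and its interval include ift-43, which was chosen for its summit, and dyf-3 also lies in a divergent promoter.

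Among 28 Mediator genes 10 had a summit in the window (35.7%, Wilson interval 20.7 to 54.2), beside the 15.6% of all protein-coding genes. After mdt-26 at rank 2 came mdt-1.2 (266, rank 1171, 178 bp upstream of the start) and sop-3, which encodes a Mediator subunit of the MED1 family (264, rank 1184, 171 bp upstream). The remaining 7, mdt-9, sur-2, mdt-22, cdk-8, rgr-1, cic-1 and lin-25, ranked from 1286 to 4065. The bound Mediator genes had a median rank of 1689.5, and a CCAAT lay within 50 bp of the summit at mdt-26 and sop-3. The count, its interval and the median rank include mdt-26, which was chosen for its summit. The bound genes cdk-8, rgr-1, cic-1 and lin-25 also lie in divergent promoters, of which 37.0% were bound. The summit counted for mdt-9 likewise lies in a divergent promoter, that of Y62E10A.20/Y62E10A.23. The lists hold genes picked by function with earlier results of these data known, and no set test was made.

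**Figure D5:**
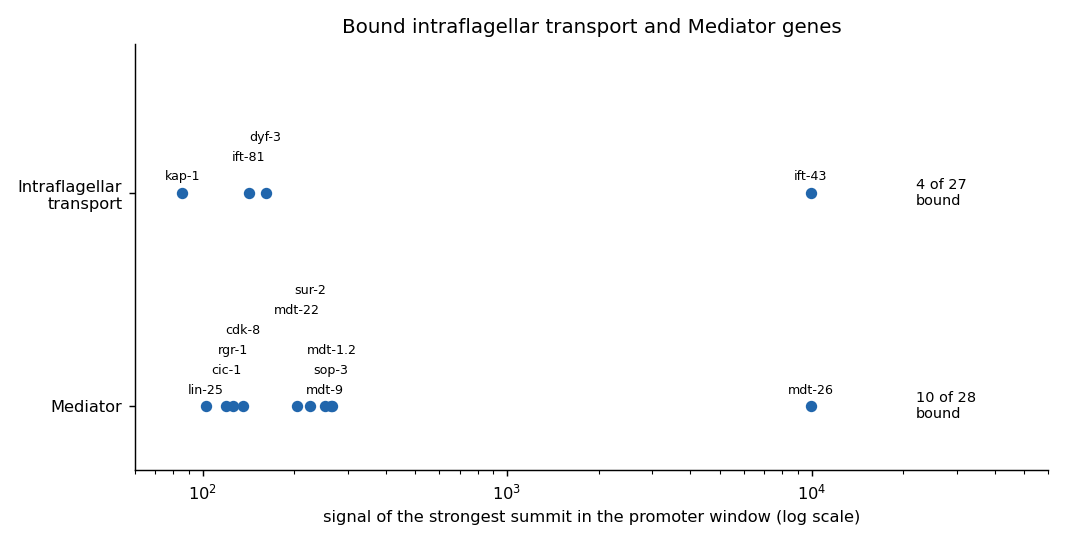
Points give the signal (log axis) of the strongest optimal summit in the promoter window of each bound gene, for the intraflagellar transport list (4 of 27 bound) and the Mediator list (10 of 28 bound). The shared promoter of ift-43 and mdt-26 lies at 9942.6, and all other bound members lie at 266 or below.

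The X-box, the sequence by which DAF-19 is known to control many cilia genes, gave another contrast within the intraflagellar transport list. It matched in the 394 bp upstream of 14 of the 27 genes (51.9%), among them the complex A genes che-11, daf-10, dyf-2, ift-139 and ifta-1 and the complex B genes osm-5 and osm-6. It did not match upstream of ift-43. In the Mediator list 1 of 28 genes matched (lin-25), and over all promoters 3.47% did. A missing match says only that these letters are not in this window.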

How the data were processed

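Whole L3 worms of 1 group were profiled in 2 replicates, and ce11 peak lists were used: the optimal IDR list, the pooled relaxed list and a relaxed list per replicate, each of the relaxed lists with 30000 regions called against a control, per the deposited file descriptions. Each region carries the signal and the −log10 q value that the authors deposited, and a summit offset. Neither an aligner nor a peak caller is named in these sources, and the number of reads is unknown. Intervals cover counting error only. The ce10 list was used for a rank only, with no coordinate converted.

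Summits were placed on WBcel235 (the ce11 assembly) with Ensembl release 115 genes. Gene starts are the annotated 5′ ends. Sequences are from the RefSeq genome of that assembly. Motifs were sought on both strands, overlapping copies included. The largest region ends fit within the reference chromosome lengths. Of the names on the gene lists, 1 intraflagellar transport and 2 Mediator names matched no Ensembl gene symbol, and these names were left out.

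The members, lists and measures were chosen with earlier results of these data known. The rule for named genes takes the pair, the genes beside summits of the locus, the 5 other divergent promoters of highest signal, the 5 with the most CCAAT boxes at the summit and the 3 most strongly bound genes of each list. Further genes of the lists, the flanking genes without a summit, the shared strings, the CGTCTC count and the spacing of 30 to 33 bp were chosen after values were seen. All comparisons are descriptions, and no p-value is given. Alternatives left out each replicate or changed the list, window, motif, gap or build. Scripts ran in Python 3.11.15 (scipy 1.17.1, pandas 2.3.3, numpy 2.4.6, matplotlib 3.10.9), and the motif and promoter counts were tested on simulated data.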

Additional observations from a re-analysis of the deposited data

How the results depend on the processing

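Of 48 values from alternative settings, 36 were marked as kept and 12 as moved. The marks do not use 1 measure of change. Bound intraflagellar transport counts from 3 to 6 and Mediator counts from 8 to 14 were marked as kept. A summit distance of 313 bp in place of 315 bp was marked as moved. Rank 2 of the summit held in the pooled list, in each replicate, over distinct intervals and in ce10. The promoter was rank 1 among divergent promoters with gaps of at most 500 bp, since the hsp-60 gap is wider, and rank 2 in the other 5 alternatives. The extended motif left 1 CCAAT box, and so gave no spacing. The locus held 6 summits in the pooled relaxed list and 8 to 9 with either replicate left out. Of these, 3 in the pooled list, 5 in replicate 1 and 4 in replicate 2 lay away from the optimal peaks. Leaving out a replicate gave 313 to 315 bp from ift-43 and 80 to 82 bp from mdt-26, and the mdt-26 start codon lay 93 bp away. The share of bound divergent promoters with at least as many boxes was 6.04% within 100 bp, 22.6% over the whole interval and 1.08% with the extended motif, and 2.59% to 2.78% with a replicate left out. A window from 200 bp upstream to 100 bp downstream left 2 bound intraflagellar transport genes and 9 Mediator genes, where 8.61% of all protein-coding genes were bound, and ift-43, at 315 bp, falls outside it. From 1000 bp upstream to 200 bp downstream, 6 intraflagellar transport and 14 Mediator genes were bound (19.4% of all genes), and with the stronger part of the list 3 and 8 were (9.77%). No paired analysis was possible because there was 1 group. Unknown read depth limits how weak a region could be detected.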
